A study of Mus musculus with 8 samples.

Results

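The libraries hold RNA of αTC1-6, a glucagon-making mouse line of pancreatic alpha cells, transfected with a plasmid that overexpresses Yy1 or with an empty plasmid. There were 4 libraries per group, numbered 45, 46, 47 and 48 for the Yy1 plasmid and 31, 32, 33 and 34 for the empty plasmid, and in both groups transfection followed seeding by 24 h, in 11 mM DMEM. All samples are of this 1 cell line, and the labels used here give no promoter for the plasmid. The noncoding transcripts described here are genes not annotated as protein coding, which means another gene type or no symbol in GENCODE M21, whose mean level with the Yy1 plasmid was at least 2 times that with the empty plasmid. The rule also asked that the lowest Yy1 library stand above the highest empty library and that each Yy1 library hold at least 20 counts. It found 64 of the 53366 genes not annotated as protein coding, in a table of 75078 genes. Levels are CPM, a gene's count scaled to the summed counts of its library. The members were thus chosen by their CPM in these same 8 libraries, and because the rule used the difference between the plasmids, that difference is described for these 64 genes and not tested.

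Long noncoding RNAs are transcripts without a known protein product. Many start beside the start of a coding gene and run away from it, others lie antisense to a coding gene or between genes, and many are kept low by the nuclear exosome, which degrades RNA soon after synthesis. Yy1 is a zinc finger protein that binds promoters and enhancers, can activate or repress genes, and also binds RNA; in mouse it is known for tethering the Xist RNA to the inactive X chromosome.

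The 64 consist of 16 annotated genes with a symbol and 48 gene models without one. Of the annotated genes, 8 are typed as lincRNAs, 6 are antisense transcripts, 1 is a sense intronic transcript and 1 is a processed pseudogene, and they lie on 13 chromosomes. The submitters' processing notes name build GRCm39, so positions from GENCODE M21, which is on GRCm38, are used here only for the order and spacing of neighbouring genes and for the sequences shown. For the 48 models, no name, gene type, position or sequence was used here. Whether they code for a protein was thus not checked, and they are called noncoding only by the rule.

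Windows of 300 bases, from 250 before to 50 after the annotated start of a gene, were taken from RefSeq (GRCm38.p6) to show how these transcripts begin relative to coding genes. Of the 16 annotated genes, 6 had windows, 7 in all. The first pair of sequences below shows a noncoding transcript that starts head to head with a coding gene. Both windows are those of the coding gene, read 5′ to 3′ on its minus strand, and the capitals are the bases between both genes' GENCODE starts. The window for Ccdc28a, a coiled-coil protein gene, is chr10:18234932-18235231, and that for Senp3, a protease gene that removes SUMO from proteins, is chr11:69682035-69682334.
Gm10827 and Ccdc28a: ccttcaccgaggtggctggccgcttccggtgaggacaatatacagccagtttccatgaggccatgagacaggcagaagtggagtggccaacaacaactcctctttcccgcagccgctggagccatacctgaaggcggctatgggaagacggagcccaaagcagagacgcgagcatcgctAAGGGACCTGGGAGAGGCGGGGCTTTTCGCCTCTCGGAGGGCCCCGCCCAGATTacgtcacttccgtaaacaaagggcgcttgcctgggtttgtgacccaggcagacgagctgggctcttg
Tnfsf13os and Senp3: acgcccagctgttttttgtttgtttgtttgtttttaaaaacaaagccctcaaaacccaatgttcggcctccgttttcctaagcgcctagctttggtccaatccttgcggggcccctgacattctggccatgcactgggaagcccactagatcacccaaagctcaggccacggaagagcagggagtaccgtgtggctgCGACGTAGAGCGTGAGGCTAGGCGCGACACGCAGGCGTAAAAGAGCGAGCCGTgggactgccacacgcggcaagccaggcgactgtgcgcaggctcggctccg

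The next window, chr2:155074262-155074561 on the plus strand, belongs to Gm45609 and shows a start beside that of a coding gene. Its capitals are the 236 bases inside the GENCODE gene of Ahcy, the enzyme that clears S-adenosylhomocysteine, which is transcribed from the other strand. RefSeq thus starts Gm45609 just outside Ahcy, while GENCODE starts it 316 bases inside.
Gm45609: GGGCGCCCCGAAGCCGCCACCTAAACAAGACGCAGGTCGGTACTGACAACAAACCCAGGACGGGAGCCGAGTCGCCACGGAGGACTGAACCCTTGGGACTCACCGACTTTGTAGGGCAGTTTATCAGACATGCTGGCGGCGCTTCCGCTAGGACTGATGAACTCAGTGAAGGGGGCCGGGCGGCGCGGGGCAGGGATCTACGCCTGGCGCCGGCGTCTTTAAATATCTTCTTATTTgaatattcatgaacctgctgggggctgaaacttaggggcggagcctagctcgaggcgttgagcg

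The window of 2310043M15Rik, chr16:93794852-93795151 on the minus strand, is shown because this transcript was nearly absent with the empty plasmid. It overlaps Dop1b on the other strand, 82997 bases from the start of that gene, and the capitals are the first 50 transcribed bases.
2310043M15Rik: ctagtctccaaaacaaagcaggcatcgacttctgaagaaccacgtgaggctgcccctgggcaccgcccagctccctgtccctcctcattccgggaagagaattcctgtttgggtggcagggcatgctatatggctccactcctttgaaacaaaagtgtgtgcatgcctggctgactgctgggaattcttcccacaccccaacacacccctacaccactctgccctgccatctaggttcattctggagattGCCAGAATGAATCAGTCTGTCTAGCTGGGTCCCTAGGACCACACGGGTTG

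The window of Gm40264, chr5:9034496-9034795 on the plus strand, is shown because it alone of the 7 held the YY1 core motif searched here, AANATGGC or its reverse complement GCCATNTT, on the strand printed. The match starts at base 130 of the window and is in capitals.
Gm40264: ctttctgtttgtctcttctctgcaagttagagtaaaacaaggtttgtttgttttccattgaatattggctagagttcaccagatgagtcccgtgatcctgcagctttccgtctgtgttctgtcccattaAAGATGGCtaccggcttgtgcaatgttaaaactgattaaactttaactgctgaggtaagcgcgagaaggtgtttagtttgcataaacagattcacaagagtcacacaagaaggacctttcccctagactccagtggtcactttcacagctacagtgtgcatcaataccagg

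The motif was thus in 1 of 7 member windows, while 6.05% of all 32851 windows in the table and 5.46% of the 11588 windows of lncRNA genes held it. A match is a description of letters and no binding site. The member windows had 43.0 to 60.0% G and C, beside a median of 48.3% over lncRNA windows. They held 0 to 25 CpG pairs, most in Gm45609, whose window overlaps the start of Ahcy, and the median over lncRNA windows was 4.

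Yy1 was high in each library labelled with its plasmid. It had 5903, 4818, 5101 and 5065 CPM in Yy1 libraries 45, 46, 47 and 48, against 178, 168, 172 and 181 CPM in empty libraries 31, 32, 33 and 34. Gcg, which encodes proglucagon, averaged 21243 ± 388 CPM with the Yy1 plasmid and 21213 ± 533 CPM with the empty plasmid (SD, n = 4 each). Of 12 alpha cell markers 11 were above 1 CPM and Gc was at 0, while 5 of 6 beta cell markers (Ins1 and Ins2 at 0) and 3 of 3 delta and PP cell markers were below 1 CPM. Nkx6-1, the other beta cell marker, averaged 50.9 CPM with the Yy1 plasmid and 54.7 CPM with the empty plasmid. Of 6 acinar and duct markers 4 were below 1 CPM (Prss1 and Amy2b at 0), and their summed level ran from 10.9 to 12.1 CPM with the Yy1 plasmid and from 9.88 to 11.0 CPM with the empty plasmid. Most of it was Cela1 and Sox9, and Sox9 averaged 4.75 ± 0.474 CPM with the Yy1 plasmid and 3.94 ± 0.382 CPM with the empty plasmid (SD, n = 4 each), without overlap. Of 7 markers of stroma, endothelium and immune cells 6 were below 1 CPM, with sums from 2.02 to 2.79 CPM with the Yy1 plasmid and from 1.45 to 2.61 CPM with the empty plasmid. Among them Ptprc, of immune cells, averaged 0.434 CPM with the Yy1 plasmid and 0.106 CPM with the empty plasmid, also without overlap. Cd68, another immune marker of the list, went the other way. It averaged 0.810 ± 0.104 CPM with the Yy1 plasmid and 1.14 ± 0.132 CPM with the empty plasmid (SD, n = 4 each). The part of these markers in the results was not tested. Totals were 29680177 to 33347445 counts per Yy1 library and 20679804 to 30570601 per empty library, so the Yy1 libraries were deeper by 1.21 times on average. The labels do not say whether samples came from separate cultures or whether the groups were handled together, so a difference in handling and the plasmid cannot be told apart, and p-values cover only the variation among these libraries, which may be technical. In bulk RNA, more transcript per cell and more cells that make it cannot be told apart either.

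Taken as a group, the 64 transcripts were rare and made up a small part of the noncoding RNA. Their summed level was 213, 206, 226 and 199 CPM in Yy1 libraries 45, 46, 47 and 48, against 81.3, 64.6, 67.6 and 77.9 CPM in empty libraries 31, 32, 33 and 34. The groups did not overlap, as the rule requires, and the ratio of the means was 2.89. All genes not annotated as protein coding took 3.83 ± 0.0506% of counts with the Yy1 plasmid and 3.77 ± 0.293% with the empty plasmid (SD, n = 4 each), a difference smaller than the spread of the empty libraries. The 64 made up 0.55 ± 0.032% of these noncoding counts with the Yy1 plasmid and 0.194 ± 0.0274% with the empty plasmid (SD, n = 4 each).

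**Figure D1:**
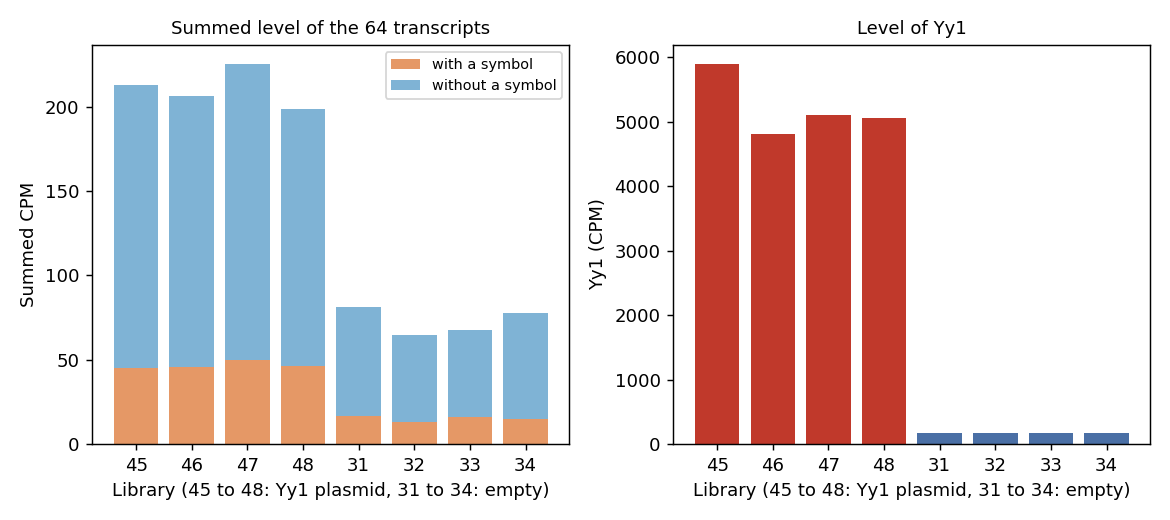
Left, summed CPM of the 64 transcripts in each library, split into those with and without a symbol; right, CPM of Yy1 in the same libraries. Summed levels lie between 199 and 226 CPM in the Yy1 libraries and between 64.6 and 81.3 CPM in the empty libraries, and library 47 has the highest sum while library 45 has the most Yy1.

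Among the Yy1 libraries the order of the sums was not that of Yy1 itself. Library 47 had the highest sum and library 48 the lowest, while Yy1 was highest in library 45 and lowest in library 46. Of the 64 transcripts, 32 had their highest level in library 47, 14 in library 45, 12 in library 46 and 6 in library 48, and 26 had their lowest Yy1-plasmid level in library 48.

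The ratios of group means ran from 2.004 to 70.5 with a median of 2.73, and the highest, of 2310043M15Rik, rests on 3 counts in the empty libraries together. They were below 3 for 39 transcripts, from 3 to below 5 for 12, from 5 to below 10 for 6 and 10 or more for 7. Mean levels ran from 0.734 to 21.7 CPM with the Yy1 plasmid and from 0.0261 to 7.84 CPM with the empty plasmid. Of the 64, 46 had between 1 and 5 CPM with the Yy1 plasmid, 10 had 5 CPM or more and 8 had less than 1 CPM. The 10 with the highest levels held 48.6% of the summed level with the Yy1 plasmid. Most thus had some counts without added Yy1: 59 had an estimated count of at least 0.5 in all 4 empty libraries and 5 were at 0 in at least 1 of them. Some of these counts lie near the floor, since a library with 0 counts still allows a mean of up to 3 counts. The 59 include ENSMUSG00000140398, with 2, 2, 1 and 3 counts in empty libraries 31, 32, 33 and 34.

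**Figure D2:**
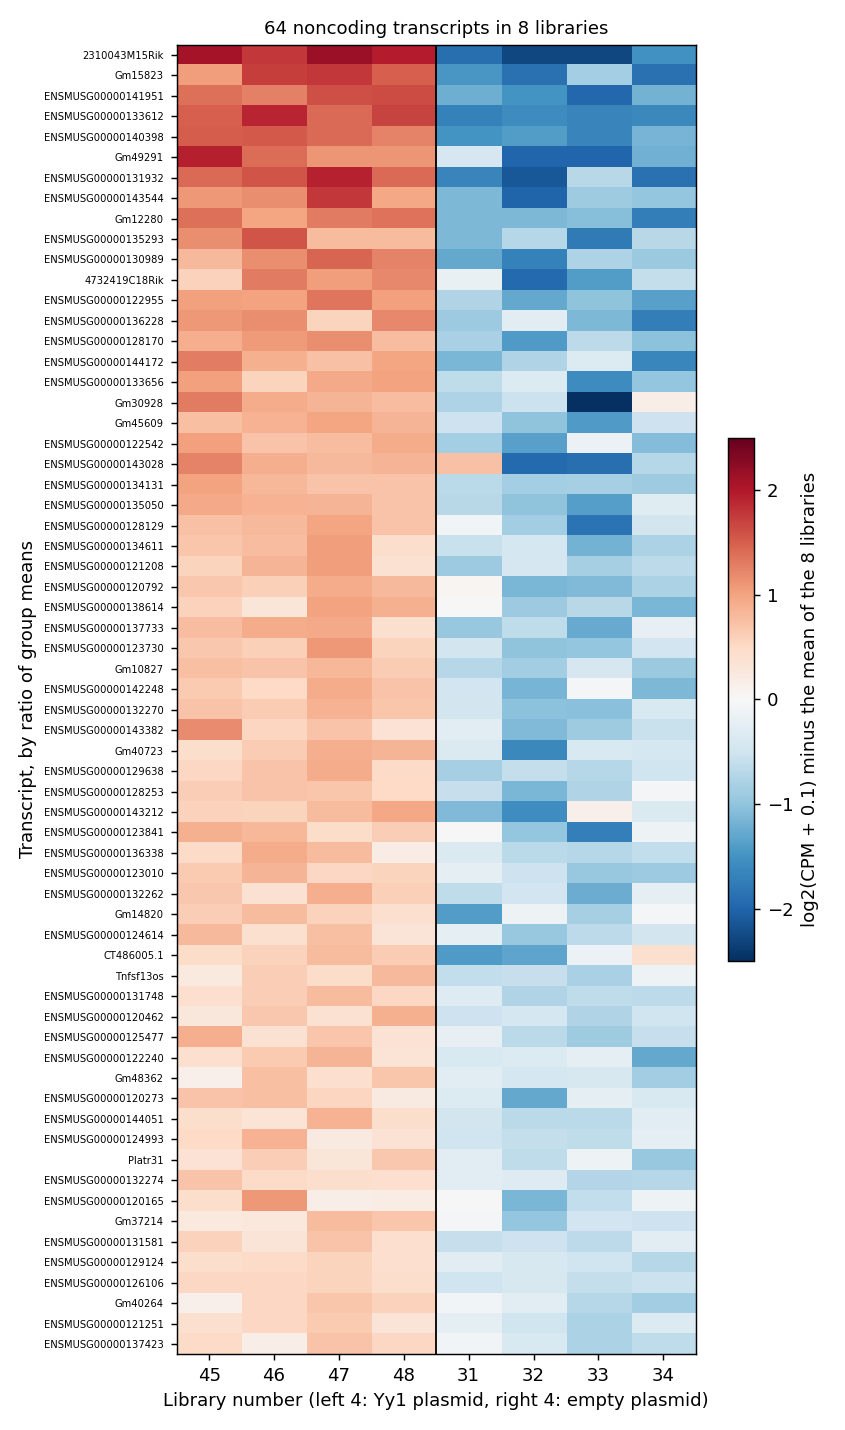
Each row is 1 of the 64 transcripts, ordered by the ratio of group means, and each column a library, with the Yy1 plasmid on the left; colour is log2(CPM + 0.1) minus the row's mean over 8 libraries. Every row is higher on the left because the rule asked for it; 2310043M15Rik, at the top, has a ratio of 70.5 and the last row has 2.004.

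How often the rule was met is given here for each kind of gene. Of the genes not annotated as protein coding with 20 counts in each Yy1 library, 3.32% met it. The share was 6.17% of 778 models without a symbol (48 genes), 1.39% of 1148 annotated noncoding genes (16 genes) and 0.0689% of 11604 protein-coding genes other than Yy1 (8 genes). These shares were not tested against each other. Without empty library 31 the rule gave 13 coding genes. With the groups exchanged, so that genes at least 2 times as high with the empty plasmid were sought, 0 of 1565 noncoding genes (0.0%) and 2 of 11381 protein-coding genes (0.0176%) met it. Without empty library 31, empty library 32 or Yy1 library 47, 1 noncoding gene did. A count minimum favours the deeper group. With 1 CPM in each library of the higher group in its place, 48 noncoding genes were at least doubled with the Yy1 plasmid and 0 with the empty plasmid.

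A model fitted to all 15916 genes that passed the filter on low counts (edgeR's quasi-likelihood test with Benjamini-Hochberg adjustment) called 79 genes higher with the Yy1 plasmid, or 0.496%, and 3 lower, or 0.0188% (7 without Yy1 library 45). Both directions together were 0.515% of the tested genes and 0.0963% of the tested coding genes, and 2.25% of the tested genes had their lowest Yy1 library above their highest empty library. Of the 64 transcripts 53 were among the 79, a count that their choice on the same contrast largely fixes and from which nothing is read. Their median fitted log2 fold change was 1.45, beside -0.0025 over all tested genes.

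Among the annotated transcripts, 3 start close to the start of a coding gene on the other strand. Gm10827, a lincRNA whose start lies 55 bases from that of Ccdc28a, had 22.1, 21.3, 23.2 and 20.1 CPM in Yy1 libraries 45, 46, 47 and 48, against 7.85, 7.09, 9.65 and 6.76 CPM in empty libraries 31, 32, 33 and 34. The lowest Yy1 library was more than 10 CPM above the highest empty library, and the ratio of means was 2.77 (log2 fold change 1.48, SE 0.0905). Stretches of Gm10827 of 100 bases or more at 90% identity were found in transcripts of 1274 other genes, so its estimated counts are uncertain. Ccdc28a, across the shared start, averaged 6.80 ± 0.418 CPM with the Yy1 plasmid and 6.59 ± 0.760 CPM with the empty plasmid (SD, n = 4 each). Its log2 fold change was 0.05 (SE 0.102, edgeR adjusted p = 0.997). Gm10827, on the other side of 54 bases, was chosen for its ratio, so the contrast between both genes is largely set by the rule.

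Tnfsf13os, named for lying opposite to Tnfsf13, starts 54 bases from Senp3. It had 0.825, 1.08, 0.967 and 1.27 CPM in the Yy1 libraries, against 0.408, 0.419, 0.341 and 0.607 CPM in the empty libraries, a ratio of 2.33. The gap between the groups was narrow, from 0.607 to 0.825 CPM, and edgeR did not call Tnfsf13os. Senp3 averaged 48.5 ± 1.65 CPM with the Yy1 plasmid and 49.6 ± 0.623 CPM with the empty plasmid (SD, n = 4 each; log2 fold change -0.03, SE 0.0443, edgeR adjusted p = 0.997).

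Gm45609, an antisense transcript at the start of Ahcy, had 4.45, 4.86, 5.31 and 4.83 CPM in the Yy1 libraries, against 1.79, 1.25, 0.912 and 1.81 CPM in the empty libraries. The Yy1 libraries varied little among themselves, and the ratio of means was 3.37 (log2 fold change 1.72, SE 0.170). Ahcy was far more abundant and averaged 177 ± 3.78 CPM with the Yy1 plasmid and 173 ± 3.98 CPM with the empty plasmid (SD, n = 4 each; log2 fold change 0.03, SE 0.0388, edgeR adjusted p = 0.993). The libraries were stranded, but whether strand was used in the counting is not given in the sources used here, so reads of overlapping genes may have been shared between them.

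Starts within 1000 bases of a coding gene's start on the other strand were found for 3 of the 16 annotated transcripts (18.8%) and for 393 of the 1148 annotated noncoding genes with 20 counts in each Yy1 library (34.2%). Overlap with a coding gene on the other strand was found for 7 of the 16 (43.8%) and for 421 of the 1148 (36.7%).

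The 3 annotated transcripts with the lowest levels with the empty plasmid each overlap a coding gene on the other strand. 2310043M15Rik, antisense to Dop1b, had 64.2, 46.0, 68.0 and 58.0 counts in Yy1 libraries 45, 46, 47 and 48, against 1, 0, 0 and 2 counts in empty libraries 31, 32, 33 and 34. These are 1.97, 1.55, 2.04 and 1.80 CPM in the Yy1 libraries, against 0.0327, 0, 0 and 0.0717 CPM in the empty libraries. All empty libraries were thus at or below the 3 counts that a count of 0 allows, or 0.145 CPM for the shallowest library and 0.09 CPM for the deepest. The pooled counts gave a ratio of 65.1 with an exact 95% interval from 22.0 to 318, for counting error only. The fitted log2 fold change was 5.83 with all libraries and 6.76 without empty library 34. Dop1b, whose transcripts share 445 bases with it on the other strand, averaged 43.0 ± 1.27 CPM with the Yy1 plasmid and 41.7 ± 2.81 CPM with the empty plasmid (SD, n = 4 each; log2 fold change 0.05, SE 0.0534, edgeR adjusted p = 0.993).

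Gm15823, a processed pseudogene that overlaps Tbc1d1 on the other strand, had 21.2, 32.7, 38.0 and 29.6 counts in the Yy1 libraries, against 1.02, 0, 2.13 and 0 counts in the empty libraries. The pooled ratio was 31.9 with an exact 95% interval from 10.9 to 149, for counting error only. The fitted log2 fold change was 4.88 with all libraries and 5.93 without empty library 33. Its sequence is repeated elsewhere: stretches of 100 bases or more at 90% identity were found in transcripts of 1078 other genes, so its estimated counts are uncertain. Tbc1d1, a Rab GTPase-activating protein gene of glucose transport, differed by -0.03 on the log2 scale (SE 0.0407; edgeR adjusted p = 0.997).

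Gm49291, a lincRNA that overlaps Id4, the gene of an inhibitor of helix-loop-helix factors, had 1.41, 0.943, 0.750 and 0.747 CPM in the Yy1 libraries, against 0.196, 0, 0 and 0.0717 CPM in the empty libraries. Library 45 was highest, and the groups were apart by a factor above 3. The log2 fold change was 3.61 with all libraries and 4.97 without empty library 31, which held most of the few counts in the empty group. Id4 averaged 2.29 ± 0.167 CPM with the Yy1 plasmid and 2.11 ± 0.413 CPM with the empty plasmid (SD, n = 4 each; log2 fold change 0.13, SE 0.176, edgeR adjusted p = 0.995).

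Of the other antisense transcripts, Gm12280 had the widest gap between groups, with 3.36, 2.56, 3.19 and 3.34 CPM in the Yy1 libraries, against 0.516, 0.519, 0.540 and 0.306 CPM in the empty libraries, a ratio of 6.62 (log2 fold change 2.71, SE 0.215). The lowest Yy1 library was more than 4 times the highest empty one. It overlaps no coding gene of GENCODE M21 and lies between Ubb, which encodes ubiquitin, 11264 bases away, and Trpv2, a cation channel gene, 8103 bases away. Trpv2 averaged 3.74 ± 0.458 CPM with the Yy1 plasmid and 3.07 ± 0.244 CPM with the empty plasmid (SD, n = 4 each; log2 fold change 0.29, SE 0.138, edgeR adjusted p = 0.909).

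Platr31 and Gm14820 run antisense to metabolic and chromatin genes and were close to the limits of the rule, and edgeR called neither. Platr31, whose name marks it as a pluripotency-associated transcript, averaged 0.953 ± 0.136 CPM with the Yy1 plasmid and 0.442 ± 0.134 CPM with the empty plasmid (SD, n = 4 each). It overlaps Tigar, a fructose bisphosphatase gene, which differed by -0.01 on the log2 scale (SE 0.0416; edgeR adjusted p = 0.997). Gm14820 averaged 0.947 ± 0.120 CPM with the Yy1 plasmid and 0.389 ± 0.195 CPM with the empty plasmid (SD, n = 4 each). It overlaps Suv39h1, a histone H3 lysine methyltransferase gene, which differed by -0.02 on the log2 scale (SE 0.0412, edgeR adjusted p = 0.997). Transcripts of Suv39h1 share 600 bases with Gm14820 on the other strand, so reads may have been shared between them.

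**Figure D3:**
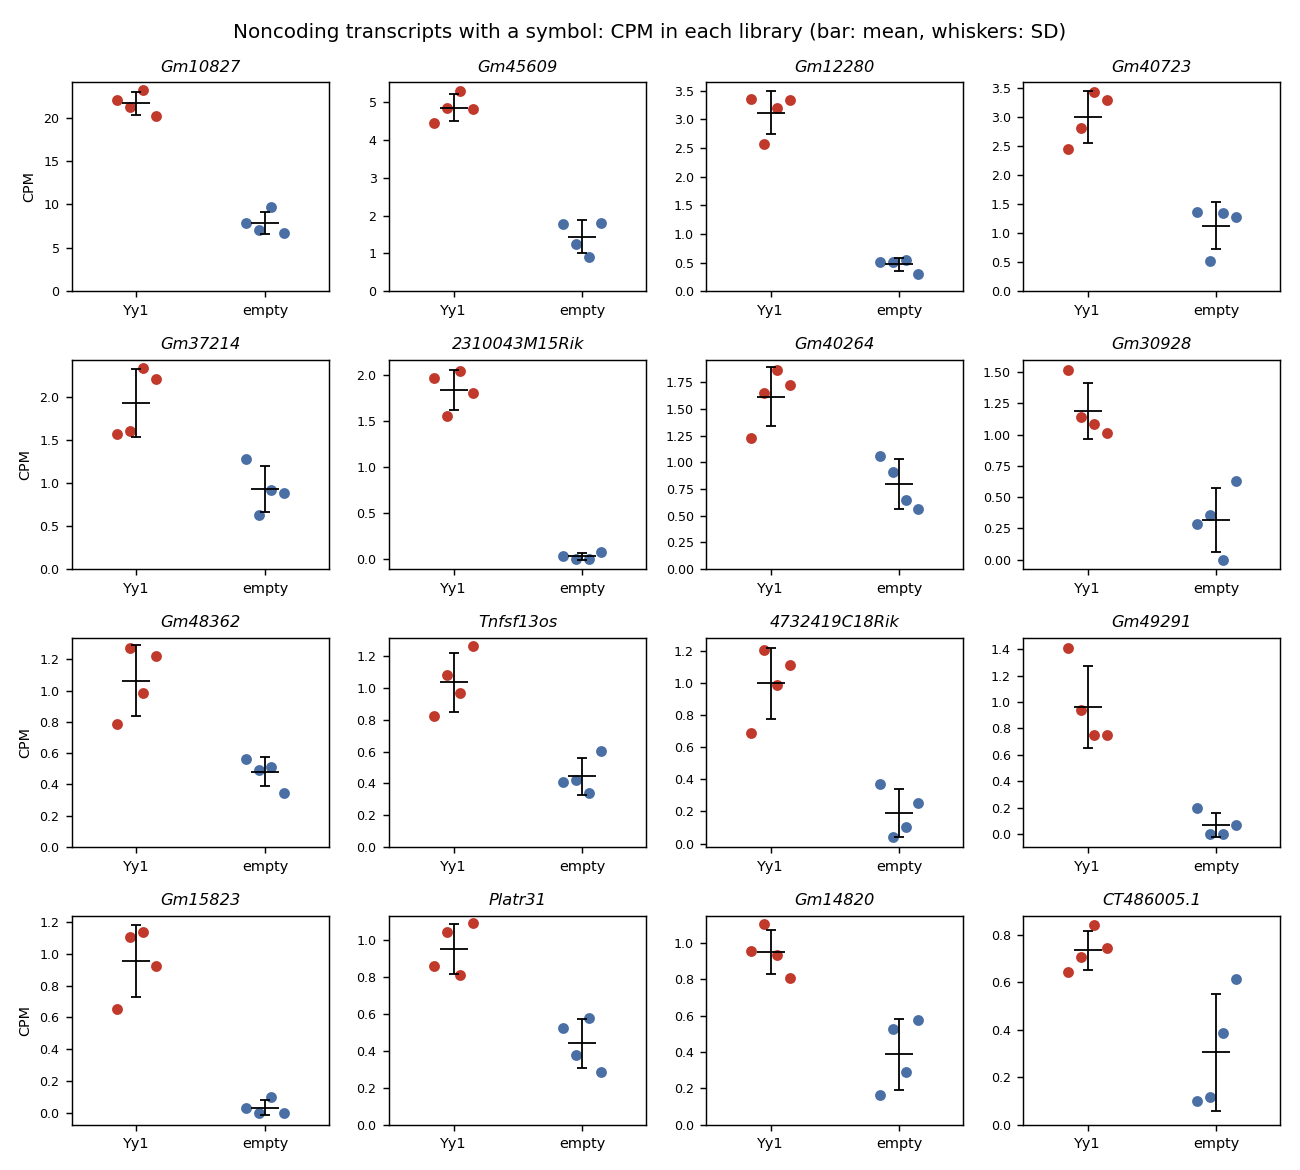
CPM of the 16 annotated transcripts in each library, Yy1 plasmid on the left and empty plasmid on the right of each panel; points are libraries, bars means and whiskers SD (n = 4). The groups do not overlap in any panel, by the rule; they are far apart for Gm10827, with means of 21.7 CPM with the Yy1 plasmid and 7.84 CPM with the empty plasmid, and close for CT486005.1, with 0.734 CPM with the Yy1 plasmid and 0.305 CPM with the empty plasmid.

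The lincRNAs that overlap no coding gene and start over 1000 bases from one on the other strand had ratios from 2.03, for Gm40264, to 5.26, for 4732419C18Rik. Gm40723 had 2.44, 2.81, 3.42 and 3.29 CPM in the Yy1 libraries, against 1.37, 0.516, 1.34 and 1.28 CPM in the empty libraries, with empty library 32 lowest. 4732419C18Rik had 0.690, 1.20, 0.986 and 1.11 CPM in the Yy1 libraries, against 0.368, 0.0380, 0.1003 and 0.251 CPM in the empty libraries, a ratio of 5.26. Its empty libraries were spread widely, at counts from 1.01 to 11.3. Gm30928 averaged 1.19 ± 0.225 CPM with the Yy1 plasmid and 0.318 ± 0.259 CPM with the empty plasmid (SD, n = 4 each), and was at 0 in empty library 33. Gm40264, whose window held the motif, had 1.22, 1.65, 1.86 and 1.72 CPM in the Yy1 libraries, against 1.06, 0.912, 0.649 and 0.565 CPM in the empty libraries. It was near the 2-fold limit, with a ratio of 2.03, and its lowest Yy1 library was only just above its highest empty one. Gm48362 had a ratio of 2.22 and CT486005.1 of 2.41. The log2 fold change of CT486005.1 was 1.30 with all libraries and 1.98 without empty library 34. Gm37214, a sense intronic transcript within Hhipl2, had a ratio of 2.08.

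Per kilobase of the longest GENCODE transcript, which allows levels to be compared between genes, Gm10827 was highest with 8.38 CPM per kb with the Yy1 plasmid and 3.03 with the empty plasmid. Gm40723 followed with 4.96 CPM per kb with the Yy1 plasmid and 1.87 with the empty plasmid. Gm45609 had 3.78 CPM per kb with the Yy1 plasmid and 1.12 with the empty plasmid. The lowest was CT486005.1, with 0.166 CPM per kb with the Yy1 plasmid and 0.0688 with the empty plasmid. The order is of the Yy1 plasmid level and depends on the transcript taken for the length. It takes no account of sequence shared with other genes.

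Sequence shared with other genes limits several of these values. Beside Gm15823, stretches of 100 bases or more at 90% identity were found in transcripts of 1274 other genes for Gm10827, 429 for Gm37214, 235 for 4732419C18Rik and 102 for Platr31. For Gm12280 there were 36 such genes. Gm48362 shared sequence with 12, with an alignment of 3209 bases to Gm42047, so its counts could be split between near-identical copies. For Gm40723 and Gm30928 there were 0 such genes. None of the 16 shared such a stretch with Yy1, so overlap in sequence with the overexpressed gene was not seen at that length. Shorter stretches, the plasmid sequence and the models without a symbol were not compared, and sharing of reads with Yy1 was not tested.

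The rule did not use the coding genes around the annotated transcripts, and their fitted values are given here. Of the 16 annotated transcripts themselves edgeR called 9, a count that their choice on the same contrast largely fixes. Over all tested genes 0.496% were called higher. Not called were Tnfsf13os, Gm40264, Gm30928, Gm48362, Platr31, Gm14820 and CT486005.1. The nearest coding gene on each side gave 32 distinct genes, of which 30 were tested. edgeR called 0 of them, as did DESeq2 and limma-voom. Of all 12466 tested coding genes edgeR called 0.0963% in either direction, so 0 of 30 says little about the neighbours. Of the 30, 2 had an unadjusted p under 0.05 in edgeR (6.67%, where 4.46% of all tested coding genes did). Log2 fold changes of the 30 ran from -0.54 to 0.29 with a median of 0.03, beside -0.0052 over all tested coding genes. 24 of the 30 were within 0.2 of 0. Over the 7 tested genes that overlap a noncoding transcript the median was -0.0102, with a range from -0.20 to 0.13.

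**Figure D4:**
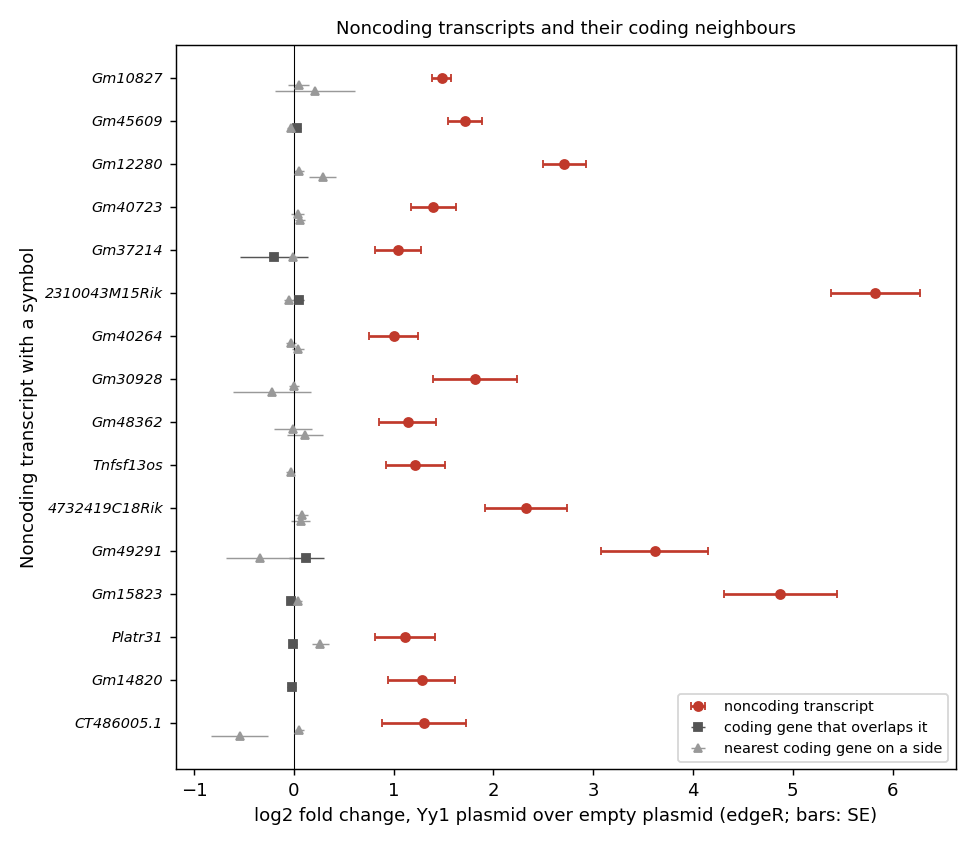
Fitted log2 fold change, Yy1 plasmid over empty plasmid, of the 16 annotated transcripts (circles), of coding genes that overlap them (squares) and of the nearest coding gene on a side (triangles), with SE bars. The circles lie at 1.00 or more, largely because the rule set a 2-fold limit on the ratio of mean CPM. The tested coding neighbours lie between -0.54 and 0.29.

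Beside Trpv2, the coding neighbour with an unadjusted p under 0.05 was Ccnd2, which encodes cyclin D2 and lies 14695 bases from Platr31. It averaged 9.87 ± 0.354 CPM with the Yy1 plasmid and 8.19 ± 0.672 CPM with the empty plasmid (SD, n = 4 each). Its log2 fold change was 0.27 (SE 0.0847; edgeR adjusted p = 0.386).

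The 48 models without a symbol made up most of the summed level, 164 ± 9.89 CPM with the Yy1 plasmid and 57.6 ± 7.23 CPM with the empty plasmid (SD, n = 4 each). ENSMUSG00000132270 took the most reads among them, with 20.6, 19.5, 23.1 and 20.2 CPM in the Yy1 libraries, against 9.10, 6.07, 6.06 and 9.60 CPM in the empty libraries. ENSMUSG00000135050 had 14.8, 13.9, 13.8 and 12.5 CPM in the Yy1 libraries, against 4.62, 3.73, 2.85 and 6.15 CPM in the empty libraries. For both, empty libraries 31 and 34 were higher than 32 and 33, and neither group came near the other. ENSMUSG00000134131 averaged 8.25 ± 0.849 CPM with the Yy1 plasmid and 2.61 ± 0.183 CPM with the empty plasmid (SD, n = 4 each). ENSMUSG00000126106 averaged 5.76 ± 0.199 CPM with the Yy1 plasmid and 2.82 ± 0.169 CPM with the empty plasmid (SD, n = 4 each).

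The other models among the 10 with the highest levels were ENSMUSG00000131581, with a ratio of 2.05, ENSMUSG00000143382, with 2.70, ENSMUSG00000130989, with 5.28, and ENSMUSG00000137733, with 2.92. They also held ENSMUSG00000125477, with a ratio of 2.31, and ENSMUSG00000131748, with 2.32. ENSMUSG00000143382 ran from 5.56 CPM in library 48 to 9.92 CPM in library 45.

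Another 5 models had the largest ratios among the models and low levels with the empty plasmid, at most 0.239 CPM on average. ENSMUSG00000141951 had 0.913, 0.832, 1.09 and 1.11 CPM in the Yy1 libraries, against 0.0664, 0.0380, 0 and 0.0720 CPM in the empty libraries, a ratio of 22.4. ENSMUSG00000133612 averaged 1.88 ± 0.315 CPM with the Yy1 plasmid and 0.106 ± 0.00634 CPM with the empty plasmid (SD, n = 4 each), a ratio of 17.8. Its empty libraries held between 2.14 and 3 counts each, at the limit that a count of 0 allows. ENSMUSG00000140398 had a ratio of 15.5, ENSMUSG00000131932 of 11.5 and ENSMUSG00000143544 of 7.58. The other 33 models had mean levels from 0.968 to 4.17 CPM with the Yy1 plasmid and ratios from 2.004 to 6.38.

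At the 2-fold limit, the members just inside were ENSMUSG00000137423, ENSMUSG00000121251 and Gm40264, with ratios of 2.004, 2.02 and 2.03. Just outside, with the rest of the rule met, were Slmapos2, ENSMUSG00000120369 and ENSMUSG00000131358, with ratios of 1.96, 1.92 and 1.90. ENSMUSG00000120369 averaged 33.7 CPM with the Yy1 plasmid and 17.6 CPM with the empty plasmid, more than any member.

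Lists of genes known to limit noncoding transcripts are described here by RNA level only. Over all tested genes edgeR called 0.515% in either direction, so a count of 0 in lists of this size says little about them. Of 24 tested factors of nuclear RNA decay (the exosome and its adaptors), edgeR, DESeq2 and limma-voom each called 0, 1 had an unadjusted p under 0.05 in edgeR (4.17%, where 5.42% of all 15916 tested genes did), and the median log2 fold change was -0.02, with 7 positive and 17 negative, beside -0.0025 over all tested genes. The 1 was Zfc3h1, which links polyadenylated nuclear RNA to the exosome, at 52.9 ± 2.42 CPM with the Yy1 plasmid and 56.8 ± 2.16 CPM with the empty plasmid (SD, n = 4 each; log2 fold change -0.10, SE 0.0459, edgeR adjusted p = 0.879). Of 20 factors of early termination, such as Integrator subunits, the 3 tools each called 0 and 0 had an unadjusted p under 0.05 in edgeR, with a median of -0.03, 5 positive and 15 negative. Of 24 factors of DNA methylation and heterochromatin the 3 tools also called 0, 0 had an unadjusted p under 0.05 in edgeR, and the median was -0.02, with 6 positive and 18 negative. Log2 fold changes in the 3 lists ran from -0.19, for Zfp809, a zinc finger repressor of proviruses, to 0.10, for Ints14.

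A list of long noncoding RNAs with a described role stands beside the same 0.515% of all tested genes called. A count of 0 in it says little as well. Of 29 tested, edgeR, DESeq2 and limma-voom each called 0, 4 had an unadjusted p under 0.05 in edgeR (13.8%, beside the 5.42% of all tested genes), and the median log2 fold change was -0.04, with 13 positive and 16 negative. Malat1, an abundant nuclear RNA, averaged 782 ± 74.5 CPM with the Yy1 plasmid and 782 ± 108 CPM with the empty plasmid (SD, n = 4 each; log2 fold change 0.0015, SE 0.116, edgeR adjusted p = 0.999). The 4 were Trp53cor1, a p53-induced RNA, with a log2 fold change of 0.66 (SE 0.2001), Rmrp, the RNA of RNase MRP, with 1.34 (SE 0.465), Snhg6, a snoRNA host, with -0.19 (SE 0.0788), and H19, an imprinted RNA, with -0.55 (SE 0.249), at edgeR adjusted p values from 0.303 to 0.890. Rmrp was low, at 0.609 ± 0.341 CPM with the Yy1 plasmid and 0.252 ± 0.161 CPM with the empty plasmid (SD, n = 4 each).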

How the data were processed

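RNA of 8 αTC1-6 samples was, per the labels' protocols, selected for poly(A) and made into stranded libraries. Per the submitters' processing notes, fastp, kallisto and build GRCm39 were used, without versions; how transcripts were summed to genes is not given in the sources used here. The authors deposited estimated counts per gene without depth scaling, for 75078 Ensembl IDs, in 1 table whose column names match the descriptions of the samples. GENCODE M21 gave symbols and types for 48278 IDs.

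The rule for members was applied to CPM by column sum. For tests, counts were rounded, passed through filterByExpr (count 10 and total 15 as minima) and TMM scaling. The fit was the robust quasi-likelihood model of edgeR 4.0.16 (R 4.3.3), two-sided, and p-values were adjusted by Benjamini-Hochberg, with calls at 0.05. The SE is the log2 fold change divided by the square root of F. DESeq2 1.42.0, limma-voom 3.58.1, other scalings, filters and rule limits, and each library left out were alternatives. BLAST 2.17.0 compared transcripts (e-value limit 1e-10). Replicate pairs differed by more than sampling noise (chi-square per degree of freedom 2.76 to 12.4). Intervals and floors cover counting error only.

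The members, the gene lists and the naming rule were chosen with earlier results of these data known. Named were all members with a symbol, of the others the 10 highest by level and the 5 largest ratios, the 3 genes on each side of the 2-fold limit, coding neighbours, and up to 4 genes of each list with the smallest p. Malat1 and list genes named for their range were chosen after their values were seen.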

Additional observations from a re-analysis of the deposited data

Results flagged for a closer look

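In 2 of 64 sets of 4 libraries checked, 1 library lay far from the other 3, where chance flags about 1 in 20. Gm12280 was at 0.306 CPM in empty library 34, with the other empty libraries at 0.516, 0.519 and 0.540 CPM. Gm40723 was at 0.516 CPM in empty library 32, with the other empty libraries at 1.28, 1.34 and 1.37 CPM. Both libraries lie on the side away from the Yy1 plasmid libraries. The rule keeps each empty library of a member below the lowest Yy1 library, so the side and number of such flags depend on it.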

How the results depend on the processing

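No paired analysis was possible because the groups share no sample number. The number of doubled noncoding transcripts, 64, was 25 with a fold limit of 3, 32 with a count minimum of 50 and 99 with a minimum of 10, and 60 to 70 with single libraries left out. The number at least halved, 0, was 1 with a fold limit of 1.5, 2 with a count minimum of 10 and 0 to 1 with single libraries left out. The 8 coding genes were 22 with a fold limit of 1.5, 19 with a count minimum of 10, 3 with a minimum of 50, 5 with 1 CPM in each library (chosen after seeing the data) and 8 to 13 with single libraries left out, the most without empty library 31. TMM, RLE and leaving Yy1 out of the sums each gave the same 64 genes. The 79 genes called higher were 52 with a filter of 1 CPM in 4 libraries, 151 with no filter and 60 to 83 with single libraries left out. The 3 called lower were 5 with DESeq2, 23 with no filter and 2 to 7 with single libraries left out, the most without Yy1 library 45. Of the members 42 to 53 were called with single libraries left out. With single libraries left out, median log2 fold changes were 1.34 to 1.53 for the members, 0.00444 to 0.0367 for coding neighbours (-0.0102 for overlapping genes alone, chosen after seeing the data) and -0.0292 to -0.0136 for termination factors. With a longer motif, AAGATGGCG or CGCCATCTT, 0 of 7 windows matched (chosen after seeing the data). The cause of these shifts was not tested beyond what the settings themselves change. Of 424 alternative values of the 31 named members, 389 moved by less than 1 SD between replicates and 0 changed sign. The rule had placed every Yy1 library of a member above every empty one, so a change of sign was largely excluded in advance. A count of 0 allows a mean of up to 3 counts, or 0.09 CPM in the deepest library and 0.145 CPM in the shallowest. Levels below these are thus near the floor.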
